A study of Homo sapiens with 6 samples.

Results

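The genes described here encode 8 products through which tumour cells restrain immune cells: CD274 (PD-L1), PDCD1LG2 (PD-L2), CD276 (B7-H3), VTCN1 (B7-H4), CD47, PVR, LGALS9 (galectin-9) and IDO1. All except IDO1, an intracellular enzyme, are ligands. They were taken by name from a fixed list, as array probe sets annotated with exactly 1 of these symbols. Each of the 8 genes had 1 such probe set, so all 8 of 8 were measured, among 18417 genes on the arrays.

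The 6 arrays measured RNA of H358, a long-established cell line from a human non-small cell lung cancer. The 3 TwistER arrays held cells stably expressing TwistER, and the 3 GFP arrays held cells stably expressing green fluorescent protein. Both lines had received 100 nM 4-hydroxytamoxifen (4OHT) for 12 days, in RPMI-1640 medium with serum. Constructs of the TwistER kind fuse the Twist transcription factor to a part of the estrogen receptor that 4OHT activates, and the titles describe these arrays as after epithelial-mesenchymal transition (EMT) and the GFP arrays as before it. As TwistER cells without 4OHT were not measured, the activated factor and other differences between the lines cannot be told apart. The labels do not say whether either line is a clone.

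Immune checkpoints are receptor and ligand pairs that damp T cells, natural killer cells or macrophages. PD-L1 and PD-L2 engage PD-1 on T cells, and CD47 engages SIRPA on macrophages. Interferon-gamma, acting through its receptor, the JAK kinases and the factor IRF1, is the classical inducer of CD274 and IDO1 in epithelial tumour cells. CD47 and PVR, by contrast, are commonly made by carcinoma cells without immune stimulation.

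Promoters of 6 members were searched, not those of PDCD1LG2 and IDO1. Of these, CD274 and LGALS9 are shown because they held an interferon-type element as spelled here, and CD274 is the member whose transcript differed past the test. They run from 250 bases before to 50 after the RefSeq start site, 5′ to 3′ (GRCh38.p14, CD274 chr9:5450292-5450591 on the plus strand, LGALS9 chr17:27630938-27631237 on the plus strand). Capitals mark matches on either strand to a pair of GAAA repeats with any 2 bases between them (bound by interferon regulatory factors), TTCNNNGAA (bound by STAT factors) and CANNTG (the E-box, bound by Twist and other factors).
CD274: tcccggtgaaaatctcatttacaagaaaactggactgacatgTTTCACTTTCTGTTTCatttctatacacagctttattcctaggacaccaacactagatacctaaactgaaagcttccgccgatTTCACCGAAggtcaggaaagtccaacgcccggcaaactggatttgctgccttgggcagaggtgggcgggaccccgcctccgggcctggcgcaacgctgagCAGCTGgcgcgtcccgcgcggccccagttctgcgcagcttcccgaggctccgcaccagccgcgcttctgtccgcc
LGALS9: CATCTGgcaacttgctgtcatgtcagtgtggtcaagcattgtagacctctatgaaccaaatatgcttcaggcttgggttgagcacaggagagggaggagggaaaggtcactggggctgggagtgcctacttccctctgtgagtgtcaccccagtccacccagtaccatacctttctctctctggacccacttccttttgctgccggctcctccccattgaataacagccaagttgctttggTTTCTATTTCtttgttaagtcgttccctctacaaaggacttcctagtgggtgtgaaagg
CD274 held 2 overlapping matches to the paired GAAA repeat, printed as the complementary strand and starting at -208 and -202 from the start site, 1 TTCNNNGAA match and 1 E-box. LGALS9 held 1 match to the paired GAAA repeat and 1 E-box. Among 35116 promoters of the same length, 3.57% held the paired GAAA repeat, 7.66% held TTCNNNGAA and 68.7% held an E-box. Of the other members in that table, PVR had 2 E-boxes, VTCN1 had 1, and the promoters of CD276 and CD47 had 0 of the motifs. A match describes letters only and is not a binding site.

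CD274 was the 1 of 8 members that passed the test, and it was lower in TwistER cells. No member rose. PDCD1LG2 and IDO1 were higher in all 3 TwistER arrays than in any GFP array, but by 1.22-fold and 1.24-fold, and neither passed. The other 5 members had overlapping groups. Values are log2 expression after RMA, a normalization that leaves all arrays with nearly the same distribution, and every difference is TwistER minus GFP with limma's SE. A gene passed at a Benjamini-Hochberg adjusted p under 0.05 over all 18417 genes. By that rule 8.83% of all genes changed, 4.72% upward and 4.11% downward, against 1 of 8 members changed. The share for the members is near that for all genes, so the count says nothing particular about them. The counts of the lists below stand beside the same shares, and no list was tested as a set. Without adjustment, a limma p under 0.05 was reached by 2 members upward and 1 downward. Of all 18417 genes, 1916 reached it upward and 2053 downward, and the unadjusted counts of the lists below stand beside these. The median difference was -0.06 over the 8 members (-0.0077 without TwistER replicate 1) and 0.0063 over all genes. The groups did not overlap in 3 of 8 members, where 28.4% of all genes had non-overlapping groups.

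Among the GFP arrays, replicate 1 differed most from the rest. Over genes it correlated with them at r = 0.982, while GFP replicates 2 and 3 correlated at 0.996 and the TwistER arrays with each other at 0.993 to 0.995. Values without it are therefore given where they matter. Array medians lay between 4.95 and 5.03. Since RMA leaves all arrays with nearly the same distribution, these medians cannot show whether an array was brighter as a whole. In a bulk culture, fewer cells with a transcript and less of it per cell cannot be told apart.

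**Figure D1:**
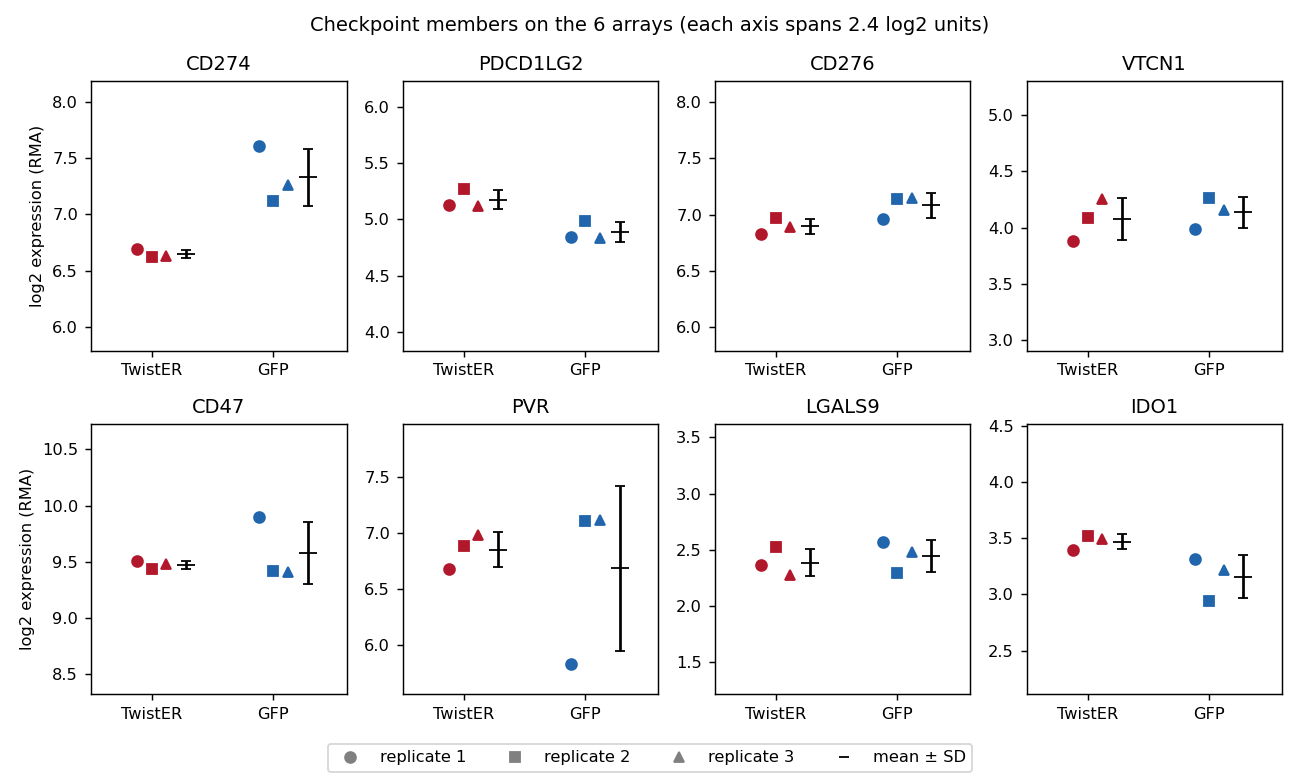
Log2 expression (RMA) of the 8 members on each array, TwistER left and GFP right, with replicates by marker shape and the mean ± SD (n = 3) as bars. CD274 is lower in every TwistER array, and in PVR the SD of the GFP group comes from replicate 1 at 5.83.

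CD274 encodes PD-L1, the ligand of PD-1 that is the target of checkpoint antibodies in lung cancer. It read 6.69, 6.62 and 6.63 in TwistER, against 7.61, 7.12 and 7.26 in GFP. The TwistER arrays lay close together and all 3 stood below the lowest GFP array, by 0.43. CD274 thus fell 1.61-fold (-0.68 ± 0.14, 95% interval -1.01 to -0.36, limma adjusted p = 0.0192). Its size ranked 1130 among the 18417 genes. GFP replicate 1 was the highest array, and leaving it out gave -0.54 (limma adjusted p = 0.00881). The call was lost without TwistER replicate 1, 2 or 3, at limma adjusted p of 0.0686, 0.0867 and 0.0808, with differences of -0.67 to -0.70.

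PDCD1LG2 encodes PD-L2, the second ligand of PD-1, and lies next to CD274 on chromosome 9. It read 5.13, 5.27 and 5.12 in TwistER, against 4.84, 4.99 and 4.83 in GFP. All TwistER arrays were above all GFP arrays, by 0.13 or more. The difference of 0.29 ± 0.11 did not pass (limma adjusted p = 0.164). The signs of the 2 PD-1 ligands were thus opposite. Within each array the log2 value of CD274 exceeded that of PDCD1LG2 by 1.56, 1.35 and 1.51 in TwistER, against 2.77, 2.13 and 2.42 in GFP. These offsets could not overlap, since each of the 2 genes already had non-overlapping groups of opposite sign, so they restate the values above. They compare arrays, not the amounts of the transcripts, since probe sets differ in brightness.

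CD276 and VTCN1 belong to the same B7 family and inhibit T cells through receptors that are less well established. CD276 read 6.83, 6.97 and 6.89 in TwistER, against 6.96, 7.14 and 7.15 in GFP. The groups touched, since TwistER replicate 2 was just above GFP replicate 1, and the difference of -0.19 ± 0.11 did not pass (limma adjusted p = 0.388). VTCN1 read 3.88, 4.09 and 4.25 in TwistER, against 3.99, 4.27 and 4.15 in GFP. These ranges lay over each other (difference -0.06 ± 0.13), and the sign turned without TwistER replicate 1 or GFP replicate 2. The mean of VTCN1 was brighter than only 23.2% of genes, where background light compresses differences.

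Of the 11 measured genes of the B7 family, CD274 alone fell and 0 rose, where 4.11% of all genes fell and 4.72% rose. At an unadjusted limma p under 0.05, 3 of the 11 were upward and 1 downward, beside 1916 and 2053 of all 18417 genes. Their median difference was 0.07, and it ran from 0.02 without GFP replicate 2 to 0.14 without GFP replicate 3 or TwistER replicate 1. When GFP replicate 1 was left out, NCR3LG1, a ligand of natural killer cells, was the 1 that rose. In a wider list of 30 surface molecules of immune regulation, 2 rose, 1 fell and the median difference was 0.16, or 0.10 without GFP replicate 1. CD40, a receptor of the tumour necrosis factor family, rose 1.51-fold (0.59 ± 0.14), and BTN3A1, a butyrophilin sensed by gamma-delta T cells, rose by a similar amount (0.58 ± 0.15). CD24, a glycoprotein that can inhibit macrophages through a Siglec receptor, fell 1.75-fold (-0.81 ± 0.16). Leaving out GFP replicate 1 gave 4 that rose, with NECTIN3 and TNFSF18 added, and 3 that fell, with CD58 and MICB added. By contrast, 0 rose without TwistER replicate 1 or 3 or GFP replicate 2 or 3. CD24 lost its call without TwistER replicate 2 or 3, where 0 of the list fell.

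**Figure D2:**
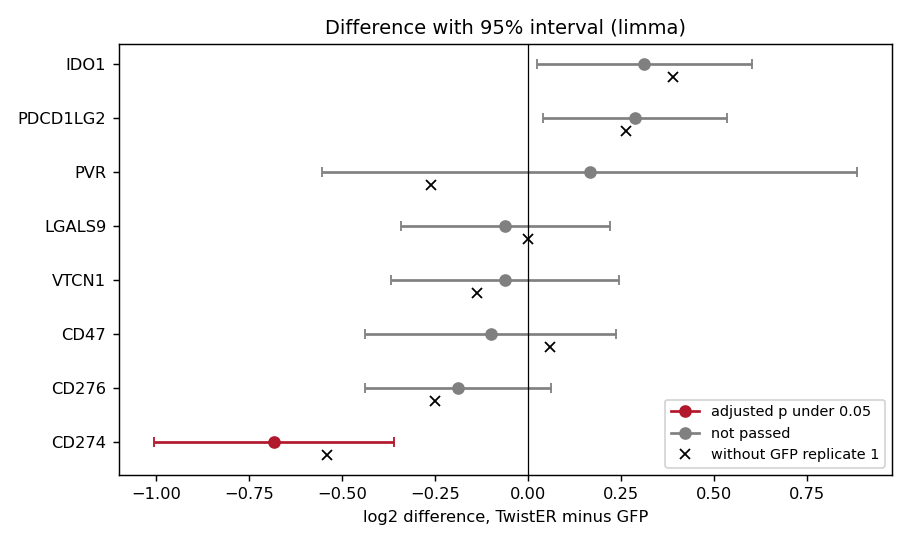
Difference of each member on the log2 scale (TwistER minus GFP), with limma's 95% interval as bars and the difference without GFP replicate 1 as crosses. The interval of CD274 runs from -1.01 to -0.36, and the cross of PVR lies at -0.26, on the other side of 0 from its point at 0.17.

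CD47, the signal that restrains phagocytosis by macrophages, was bright in every array. It read 9.50, 9.43 and 9.48 in TwistER, against 9.89, 9.42 and 9.41 in GFP. GFP replicate 1 was high, and the other 5 arrays lay between 9.41 and 9.50. The difference was -0.10 ± 0.15 (limma adjusted p = 0.774, 95% interval -0.44 to 0.24), and 0.06 without GFP replicate 1. SIRPA, its receptor on myeloid cells, had a difference of -0.04 ± 0.11 from a low level. THBS1, which encodes the secreted CD47 ligand thrombospondin-1, read 12.14, 12.13 and 11.94 in TwistER, against 10.52, 11.77 and 11.74 in GFP. The groups did not overlap, but GFP replicate 1 was far below the rest and the difference of 0.73 ± 0.30 did not pass (limma adjusted p = 0.210). It was 0.31 with that array left out (limma adjusted p = 0.0853) and 0.40 with arrays weighted by their quality.

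PVR, a nectin-like adhesion molecule, inhibits through TIGIT and CD96 and activates through CD226. It read 6.68, 6.89 and 6.98 in TwistER, against 5.83, 7.10 and 7.12 in GFP. GFP replicate 1 lay 1.28 below the mean of the other GFP arrays, a deviation larger than in 99.3% of genes, and the other 2 GFP arrays were above all TwistER arrays. With all arrays the difference was 0.17 ± 0.31 (limma adjusted p = 0.833). With that array left out it was -0.26, and it did not pass there either (limma adjusted p = 0.187). Its direction therefore rests on that array. Of the 8 measured nectins and nectin-like genes, NECTIN4, an adhesion molecule of epithelia, fell 1.56-fold (-0.64 ± 0.13, limma adjusted p = 0.0153) and 0 rose, with 1 upward at an unadjusted limma p under 0.05. Over all genes 4.11% fell and 4.72% rose. The median difference of these 8 genes, 0.10, turned to -0.12 without GFP replicate 1 and was 0.03 without TwistER replicate 3. Leaving out GFP replicate 1 made NECTIN3 rise and NECTIN1 fall, so that 1 rose and 2 fell. NECTIN4 lost its call without TwistER replicate 1 or 3 or GFP replicate 2 or 3.

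LGALS9 encodes galectin-9, a lectin that binds TIM-3 on T cells. Its own probe set read 2.36, 2.52 and 2.28 in TwistER, against 2.57, 2.29 and 2.48 in GFP. The groups overlapped, the difference was -0.06 ± 0.12, and the mean was brighter than only 2.62% of genes. The annotation also gives 2 probe sets that name LGALS9 together with its near copies LGALS9B and LGALS9C. The first read 4.86, 4.64 and 4.71 in TwistER, against 4.57, 4.74 and 5.10 in GFP. The second read 4.83, 4.71 and 4.69 in TwistER, against 4.45, 4.75 and 5.01 in GFP. Both pairs of groups overlapped, with differences of -0.07 and 0.01. Which of the 3 genes gave this signal cannot be told apart. Of the 11 galectins and related genes, 1 rose and 0 fell: LGALSL, a galectin-related protein, at 1.43-fold (0.52 ± 0.11, limma adjusted p = 0.0221). Over all genes 4.72% rose and 4.11% fell. The median difference of the 11 galectins and related genes was 0.13, and -0.0028 without GFP replicate 1 or 0.06 without TwistER replicate 3. With no adjustment 2 were upward and 0 downward at a limma p under 0.05, beside 1916 and 2053 of all 18417 genes. LGALSL lost its call without TwistER replicate 2 or 3 or GFP replicate 2 or 3.

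IDO1, which converts tryptophan to kynurenine and so starves and inhibits T cells, was dim. It read 3.40, 3.52 and 3.49 in TwistER, against 3.31, 2.94 and 3.22 in GFP. The groups did not overlap, with a gap of 0.09 between them. The difference of 0.31 ± 0.13 (1.24-fold, 95% interval 0.02 to 0.60) did not pass (limma adjusted p = 0.194). Without GFP replicate 2, the lowest array, it was 0.20 (limma adjusted p = 0.455). With arrays weighted by their quality it was 0.39 and passed (limma adjusted p = 0.0328), which it did under no other alternative tried. Its mean was brighter than only 12.1% of genes.

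Around IDO1, 20 genes of tryptophan and kynurenine handling were measured, of which 1 rose and 2 fell. Over all genes 4.72% rose and 4.11% fell. Their median difference of 0.02 ran from -0.03 without GFP replicate 2 to 0.07 without TwistER replicate 3. CYP1B1, a target of the aryl hydrocarbon receptor (AHR) that kynurenine can activate, read 6.65, 6.80 and 6.54 in TwistER, against 8.87, 8.58 and 8.45 in GFP. It fell 3.93-fold (-1.97 ± 0.14), with all TwistER arrays far below all GFP arrays and a limma adjusted p of 8.15e-05. AHR itself fell 1.68-fold (-0.75 ± 0.15, limma adjusted p = 0.0159). TIPARP, another AHR target that represses the receptor, rose 1.35-fold (0.43 ± 0.10). CYP1A1, a relative of CYP1B1 in the same list, did not pass (0.19 ± 0.17). Its mean was brighter than only 17.5% of genes, and AHRR, also listed, was not analysed. AHR lost its call without TwistER replicate 1, 2 or 3, and TIPARP when any TwistER array or GFP replicate 2 or 3 was left out. Leaving out GFP replicate 1 gave 1 that rose and 3 that fell, with AADAT added. Leaving out a TwistER array gave 0 and 1.

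The interferon-gamma route, which induces CD274 and IDO1, was higher in part while CD274 was lower. Of 21 measured genes, 5 rose and 0 fell, where 4.72% of all genes rose and 4.11% fell. The median difference of the 21 was 0.12, or 0.05 without GFP replicate 1, with 13 differences positive and 8 negative. At an unadjusted limma p under 0.05, 8 were upward and 0 downward, beside 1916 and 2053 of all 18417 genes. GBP2, an interferon-induced GTPase, read 6.56, 6.32 and 6.30 in TwistER, against 4.83, 4.62 and 4.38 in GFP. It rose 3.45-fold (1.78 ± 0.15). IFNGR2, the signalling chain of the interferon-gamma receptor, read 7.93, 7.84 and 7.93 in TwistER, against 6.89, 7.04 and 6.93 in GFP, and rose 1.92-fold (0.94 ± 0.10). Both had groups well apart (limma adjusted p = 0.000175 for GBP2 and 0.00085 for IFNGR2).

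The other 3 that rose were the chemokines CXCL10 (1.30 ± 0.16) and CXCL11 (0.81 ± 0.20) and the kinase JAK1 (0.72 ± 0.15), the last named after its value was seen. CXCL11 passed only narrowly and lost its call under a second quantile normalization, median centring and cyclic loess, and when any TwistER array or GFP replicate 2 or 3 was left out. JAK1 lost it without TwistER replicate 1, 2 or 3. Leaving out GFP replicate 1 gave 7 that rose, with GBP5 and IRF9 added, and leaving out any 1 of the TwistER arrays gave 3.

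Other steps of the route did not pass, and their values were also read before they were named. IFNGR1, the ligand-binding chain, had a difference of -0.17 ± 0.19, JAK2 0.05 ± 0.19 and IRF1 0.12 ± 0.17. Among relatives of the genes that rose, CXCL9 (-0.23 ± 0.20) and GBP4 (-0.12 ± 0.15) had negative differences. GBP5 (0.51 ± 0.14) had a positive one, and none of these passed with all arrays. IFNG, the cytokine itself, read 2.37, 2.27 and 2.37 in TwistER, against 2.66, 2.38 and 2.46 in GFP, among the dimmest 2.63% of genes.

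**Figure D3:**
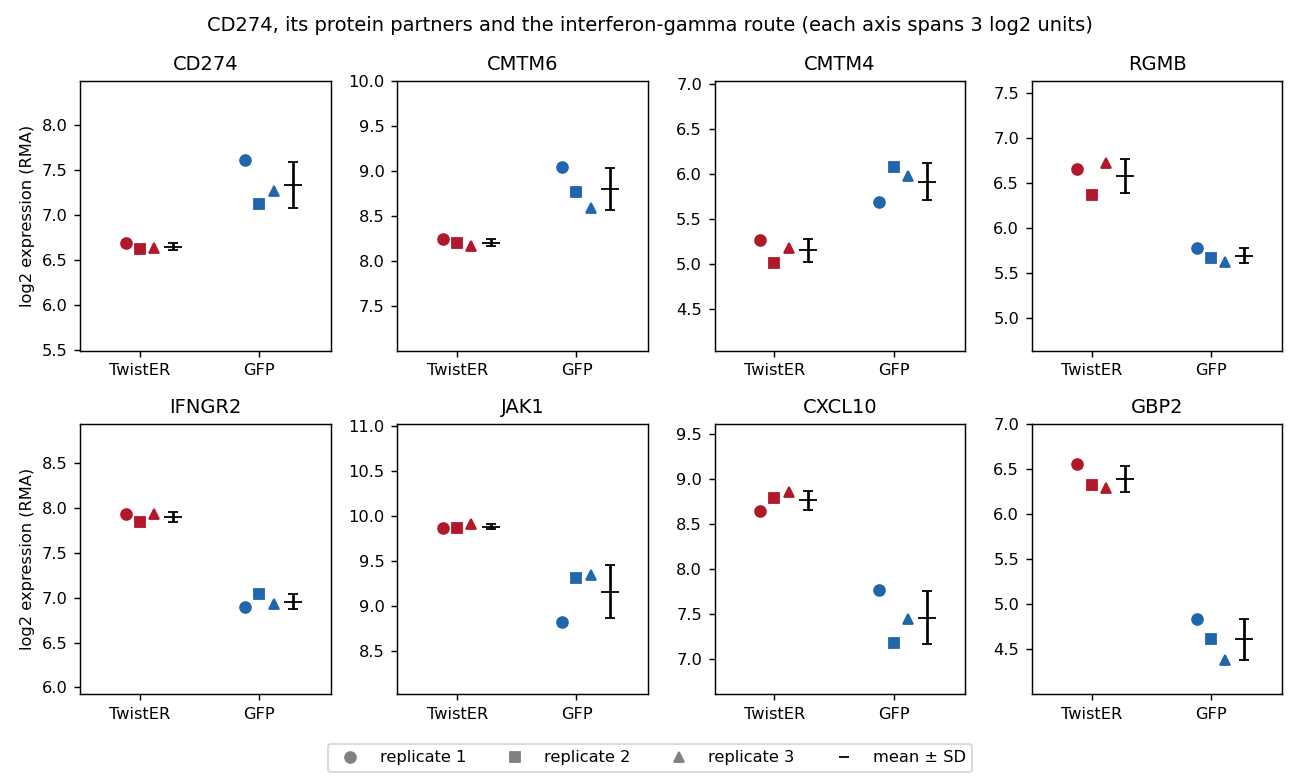
Log2 expression (RMA) on each array of CD274, its stabilisers CMTM6 and CMTM4, the PD-L2 partner RGMB and 4 genes of the interferon-gamma route, TwistER left and GFP right, with mean ± SD (n = 3). CD274, CMTM6 and CMTM4 are lower in all TwistER arrays, and RGMB, IFNGR2, JAK1, CXCL10 and GBP2 are higher.

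The 2 genes that fell among modifiers of the PD-L1 and CD47 proteins both act on PD-L1. CMTM6, a membrane protein that keeps PD-L1 from lysosomal degradation, read 8.24, 8.20 and 8.17 in TwistER, against 9.05, 8.76 and 8.59 in GFP. It fell 1.51-fold (-0.60 ± 0.13, limma adjusted p = 0.0282), with the groups apart by 0.35. Its relative CMTM4 read 5.27, 5.02 and 5.18 in TwistER, against 5.69, 6.08 and 5.98 in GFP, and fell 1.70-fold (-0.76 ± 0.14, limma adjusted p = 0.00968).

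The list held 10 measured modifiers, of which 2 fell, where 4.11% of all genes fell and 4.72% rose. None of the 10 rose, with 0 upward also at an unadjusted limma p under 0.05, and the median difference of the 10 was 0.03. That median turned sign with the arrays used, from -0.11 without GFP replicate 1 to 0.12 without GFP replicate 3. CMTM6 lost its call without any TwistER array or GFP replicate 2. CMTM4 lost it without TwistER replicate 2, so that 0 of the 10 fell there.

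The arrays also covered a list of receptors, most of them leukocyte genes. It held receptors of the members, other receptors such as CTLA4, CD28, ICOS, LAG3 and BTLA, and the CD47 ligand THBS1. Of the 14 measured genes of this list, 1 rose and 0 fell, where 4.72% of all genes rose and 4.11% fell. The median difference of the 14 was 0.11 (0.19 without GFP replicate 3). Of them, 3 were upward at an unadjusted limma p under 0.05, with 0 downward, beside 1916 and 2053 of all 18417 genes. RGMB, a membrane-anchored BMP co-receptor that also binds PD-L2, read 6.66, 6.37 and 6.72 in TwistER, against 5.78, 5.67 and 5.62 in GFP. It rose 1.85-fold (0.89 ± 0.13, limma adjusted p = 0.0032) and kept its call without each array in turn. The differences of TIGIT (-0.20 ± 0.15) and HAVCR2, which encodes TIM-3 (0.10 ± 0.12), did not pass. Of the 14 genes of the list, 10 lay among the dimmest 25% of genes. PDCD1, which encodes PD-1, was not analysed here.

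Markers of other cells were compared beside these results, where 4.72% of all genes rose and 4.11% fell. Of 11 leukocyte markers, 0 passed in limma and 0 reached an unadjusted p under 0.05, and their mean log2 value was 4.14 to 4.29 in TwistER arrays and 4.07 to 4.14 in GFP arrays. PTPRC, the pan-leukocyte marker CD45, passed without GFP replicate 1. RMA values have no 0, and 6 of these 11 markers lay among the dimmest 25% of genes. Of 5 endothelial markers, KDR (1.79 ± 0.12) and PECAM1 (0.61 ± 0.12) rose, while CDH5, TEK and VWF did not pass. PECAM1 lost its call without TwistER replicate 1 or 3 or GFP replicate 2, and with the mean of its probe sets. Of 7 fibroblast markers, COL1A1 rose (0.54 ± 0.13) and LUM fell (-1.63 ± 0.18). COL1A1 lost its call when any TwistER array or GFP replicate 2 or 3 was left out, where 0 rose, while LUM kept its call without each array in turn. Of 7 lung epithelial markers 4 fell: CDH1 (-4.99 ± 0.23), EPCAM (-3.28 ± 0.16), KRT19 (-3.22 ± 0.15) and KRT8 (-0.70 ± 0.14). The mean of the 7 was 7.03 to 7.06 in TwistER arrays and 8.65 to 9.17 in GFP arrays. KRT8 lost its call without TwistER replicate 2 or GFP replicate 2 or 3, while CDH1, EPCAM and KRT19 kept theirs without each array in turn. Leaving out GFP replicate 1 made KRT7 and KRT18 fall as well. The marker NKX2-1, which defines lung lineage, read 4.57 to 4.63 in TwistER arrays and 4.49 to 4.60 in GFP arrays. Its mean was brighter than 31.9% of genes. The part of any of these in the results was not tested.

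The genes with the profile nearest to CD274 over the 6 arrays, by the root mean square distance of values centred per gene, were RNF138 (0.05), CCNE2 (0.06) and ZMPSTE24 (0.06). These encode a ubiquitin ligase, cyclin E2 and a prelamin A protease. RNF138 read 6.72, 6.53 and 6.55 in TwistER, against 7.52, 7.04 and 7.14 in GFP. It shared with CD274 both the lower TwistER values and the high GFP replicate 1, which with 6 arrays is a description only.

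On the short arm of chromosome 9, 2 of the 11 other measured genes around CD274 fell and 0 rose. Over all genes 4.11% fell and 4.72% rose. The 2 were RIC1, a subunit of a Golgi exchange factor (-0.49 ± 0.13, limma adjusted p = 0.0472), and ERMP1, a peptidase of the endoplasmic reticulum. ERMP1 read 6.25, 6.04 and 6.36 in TwistER, against 7.55, 7.25 and 7.16 in GFP, with a wide gap between the groups. It fell 2.15-fold (-1.10 ± 0.14, limma adjusted p = 0.00184) and kept its call without each array in turn, whereas RIC1 lost its call when any TwistER array or GFP replicate 2 or 3 was left out. PLGRKT (-0.62 ± 0.18) and RCL1 (-0.40 ± 0.11), named after their values were seen, had non-overlapping groups but did not pass. With array weights both passed (limma adjusted p = 0.0200 for PLGRKT and 0.00791 for RCL1). RCL1 also passed with median centring and with either brightness filter, but not with a second quantile normalization or cyclic loess. PDCD1LG2, between CD274 and RIC1, and JAK2 (0.05 ± 0.19) had positive differences and did not pass. When GFP replicate 1 was left out, PLGRKT and RCL1 also fell and RLN2 rose, which gave 4 and 1 of the 11. Leaving out any other single array gave 1 that fell, ERMP1.

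**Figure D4:**
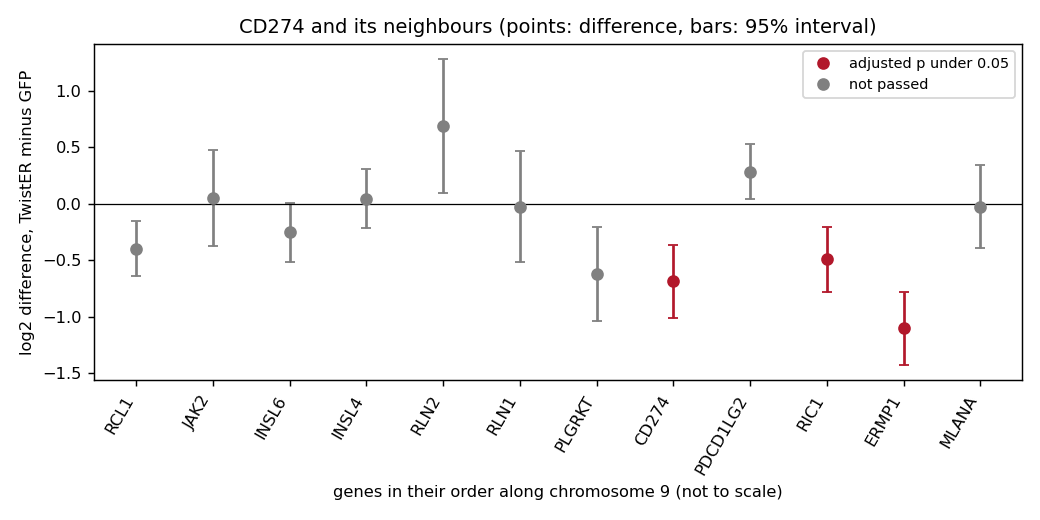
Difference on the log2 scale (TwistER minus GFP) of CD274 and its measured neighbours, in their order along chromosome 9 and not to scale, with limma's 95% interval as bars. CD274, RIC1 and ERMP1 passed the test below 0, while PDCD1LG2 between them lies at 0.29.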

How the data were processed

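Biotin-labelled RNA of 6 H358 cultures was measured on Affymetrix arrays, per the labels' protocols. The authors deposited log2 expression per probe set, made with RMA, per the submitters' processing notes. Its version, the genome build and filters were not given in the sources used here. After RMA all arrays have nearly the same distribution, which hides a shift of all transcripts together, and for dim genes background light shrinks differences.

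The table held 33297 probe sets, of which the platform annotation gave 19460 exactly 1 gene symbol. Per gene, the probe set with the highest mean over the 6 arrays was kept, which left 18417 genes. Tests of the difference, TwistER minus GFP, came from a 2-sided lmFit and eBayes fit (limma 3.58.1, R 4.3.3, without covariates or a filter on dim genes). P-values were adjusted by Benjamini-Hochberg over all 18417 genes, with a threshold of 0.05. "Rose" and "fell" are used only past it. The titles call the arrays biological replicates and say no more of how cultures were separated, and p-values thus reflect only how these samples varied.

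The members and lists were chosen with earlier results of these data known. Named are the 8 members, up to 4 called genes of each list by size of difference, partners of the members, and the genes nearest to a called member's profile. Alternatives covered normalization, brightness filters, probe-set choice, variance model, weights per array, a replicate block, thresholds and leaving out each array. List counts without each array were added after seeing the data. Genes that passed only when an array was left out were named after their values were seen, as were CXCL9, GBP4 and CYP1A1. In simulated data with 18417 genes, 93 of 100 genes moved by 2 log2 units and 70 of 100 moved by 1 were called, beside 9 calls among the others. The simulated noise was independent between arrays and held no departing array such as GFP replicate 1, so these rates need not hold here. Promoter sequences are RefSeq's (GRCh38.p14), and 6 of the 8 members matched that table. Python 3.11.15 with pandas 2.3.3 and matplotlib 3.10.9 served for tables and plots.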

Additional observations from a re-analysis of the deposited data

How the results depend on the processing

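The fall of CD274 kept its direction in all 16 alternatives, with differences of -0.79 to -0.54, and its call in 12. It was lost without each TwistER array and when all probe sets were tested without reduction to genes (limma adjusted p = 0.0634), where 0 members fell. At an adjusted p under 0.01, 0 members fell. With array weights 1 member, IDO1, rose. Leaving out single arrays gave 0 to 1 members that fell. Over all genes, leaving out single arrays gave 473 to 1283 rises and 358 to 1490 falls, array weights gave 1551 and 1717, a threshold of 0.01 gave 472 and 335, a threshold of 0.1 gave 1192 falls, and all probe sets gave 491 falls, beside 870 and 757. Differences that did not pass turned sign with array weights in CD47 (0.029), PVR (-0.21), LGALS9 (0.020), IFNGR1 (0.037) and IRF1 (-0.027). Leaving out single arrays they ran from -0.15 to 0.034 in VTCN1, -0.18 to 0.058 in CD47, -0.26 to 0.38 in PVR, -0.11 to 0.27 in JAK2, -0.28 to 0.050 in IFNGR1, -0.019 to 0.25 in IRF1 and -0.10 to 0.017 in SIRPA. Of the 30 named genes past the threshold, 11 kept their call without each array in turn and 19 lost it without at least 1. The cause of these changes was not tested, other than that testing all probe sets adds rows to the adjustment. Deviations of same-numbered arrays from their group means correlated at 0.14, 0.02 and 0.16. With so few arrays these values cannot decide whether same-numbered samples were paired, and the labels do not say. With the replicate number as a replicate block, CD274 had a limma adjusted p of 0.0226, 840 genes rose and 752 fell, and TIPARP lost its call. The number of arrays limits precision, and VTCN1, LGALS9 and IDO1 lay among the dimmest 25% of genes, so brightness filters removed them.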
